A study of Mus musculus with 12 samples.

Results

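The antigen presentation genes described here are the 10 genes of the deposited count table whose symbol is H2-Aa, H2-Ab1, H2-Eb1, Cd74, Ciita, H2-K1, H2-D1, B2m, Tap1 or Psmb8. They are 10 of 35275 genes in the table, and each symbol matched 1 gene. They were picked by name, with earlier results of these data known. The first 5 belong to the MHC class II pathway and the last 5 to the MHC class I pathway. RNA-Seq was performed on cultured cardiac fibroblasts from hearts of 12-week-old C57BL/6 mice with a floxed Smad7 gene, used at passage 2. For the control genotype an adenovirus without Cre was used, which the sample labels describe as expressing GFP and the study's methods as empty. Smad7-KO cells received an adenovirus expressing Cre, in both cases at 100 MOI for 48 hours. Cells of each genotype were left unstimulated or given TGF-β1, which made 4 conditions with 3 libraries each. TGF-β1 was used at 10 ng/ml, and its duration is 4 hours in the treatment protocol of the labels and 2 hours in their treatment field. The cells of all 4 conditions are labelled as coming from floxed mice and were exposed to a virus, while the sample titles call the control cells wild type. Nothing states that the 3 libraries of a condition came from separate mice, so p values measure only the spread between these libraries, which may be technical.

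MHC class I molecules sit on nearly all nucleated cells and present peptides cut from intracellular proteins to CD8+ T cells. Their heavy chains, H2-K1 and H2-D1 in these mice, pair with β2-microglobulin, the product of B2m. The peptides are cut by the proteasome, whose Psmb8 subunit replaces a constitutive one in the immunoproteasome, and are pumped into the endoplasmic reticulum by the transporter of which Tap1 is one chain. MHC class II molecules are found mainly on macrophages, dendritic cells and B cells and present peptides from endocytosed proteins to CD4+ T cells. Their chains are encoded by H2-Aa, H2-Ab1 and H2-Eb1, Cd74 is the invariant chain that guides them, and Ciita is the master coactivator of their transcription. Fibroblasts carry class I at baseline and acquire class II mainly after exposure to interferon-γ. C57BL/6 mice make no Eα chain, so the H2-Eb1 product has no partner in them, and the remnant H2-Ea-ps had 0 counts in every library here.

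The promoters of class I and class II genes share a sequence module, in which a CRE-like box bound by CREB-type factors and a CCAAT box bound by NF-Y lie at a fixed distance. The 150 bases before the RefSeq start (GRCm38.p6) were read for 7 of the 10 genes. H2-Ab1, Cd74 and Ciita were not analysed for promoter sequence. The motifs searched were TGACG and ATTGG, each on both strands, and their joint arrangement, TGACG followed after 15 to 25 bases by ATTGG, also on both strands. The gap was chosen after these sequences had been seen. The sequences of 5 members are shown because they hold the shared module or, in H2-Eb1, part of it. Capitals mark every match to either motif, and in H2-Aa both strands match TGACG within the same palindrome. The B2m sequence is chr2:122147537-122147686 on the plus strand and the H2-K1 sequence chr17:34000334-34000483 on the minus strand, immediately upstream of the deposited gene. The H2-D1 sequence is chr17:35262944-35263093 on the plus strand and lies inside the deposited gene interval, which begins further upstream than the RefSeq start. The H2-Aa sequence is chr17:34287824-34287973 on the minus strand, and the H2-Eb1 sequence chr17:34305717-34305866 on the plus strand.
B2m: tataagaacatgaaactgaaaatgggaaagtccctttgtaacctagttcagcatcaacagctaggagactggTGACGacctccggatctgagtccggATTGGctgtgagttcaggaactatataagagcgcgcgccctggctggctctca
H2-K1: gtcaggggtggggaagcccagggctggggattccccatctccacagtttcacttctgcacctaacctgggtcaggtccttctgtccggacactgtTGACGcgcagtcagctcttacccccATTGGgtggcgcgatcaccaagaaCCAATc
H2-D1: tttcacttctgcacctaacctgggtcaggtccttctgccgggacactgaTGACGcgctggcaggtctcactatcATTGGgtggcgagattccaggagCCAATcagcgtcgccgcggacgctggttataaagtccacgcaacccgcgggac
H2-Aa: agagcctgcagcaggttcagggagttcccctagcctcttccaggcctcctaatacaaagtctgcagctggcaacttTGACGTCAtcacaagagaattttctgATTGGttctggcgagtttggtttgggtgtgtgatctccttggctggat
H2-Eb1: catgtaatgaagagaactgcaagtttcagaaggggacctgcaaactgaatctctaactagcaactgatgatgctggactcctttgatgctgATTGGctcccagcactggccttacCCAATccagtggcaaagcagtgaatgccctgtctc
B2m, H2-K1, H2-D1 and H2-Aa hold the joint arrangement, with 20 bases between both motifs in the 3 class I genes and 21 in H2-Aa. It begins 78, 55, 101 and 74 bases before the start in these 4 genes, in that order. H2-Eb1 has 2 matches to ATTGG and none to TGACG in this window, Tap1 has 1 to TGACG alone, and Psmb8 has neither. Of all 32851 RefSeq mouse promoters cut to the same window, 24.5% held ATTGG, 13.3% held TGACG and 0.295%, or 97, held the joint arrangement. These are descriptions of letters in a window and do not show binding of a factor.

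Total counts were between 19056916 and 25371321 per library. Smad7 was checked first. It was at 74.4 ± 2.94 CPM (counts scaled to library size; SD, n = 3) in unstimulated control and 29.4 ± 1.48 in unstimulated Smad7-KO libraries, and at 146 ± 4.24 and 76.8 ± 5.89 in the TGF-β1 control and Smad7-KO libraries, with no overlap in either pair. Unstimulated control library 2 stood apart by gene length, since the slope of its log2 CPM on log2 gene length, relative to the mean library, was -0.396 against -0.142 to 0.143 in the others. The biological coefficient of variation, which measures how replicates differ over and above counting error, was 0.335 in unstimulated control libraries and 0.0530 to 0.137 in the other conditions. Fibroblast markers were abundant as a sum, with 10 of 10 found and a summed level of 1.05% to 1.42% of counts, although Lum had 10 to 43 counts. All 18 macrophage markers had reads too, with 1.84% to 2.89% of counts, and the macrophage lysozyme gene Lyz2 had the highest median FPKM of all genes. In bulk RNA a change in the number of cells of a type and a change of RNA per cell cannot be told apart. Of the cells that carry the most class II, B cells had 5 markers with at most 10 counts in any library, and the dendritic cell list of 9 genes was mixed. Flt3, Clec9a and Ccr7 had at most 9, 6 and 4 counts and Cd209a had 0 in all 12 libraries, while Xcr1 had 4 to 30, Batf3 4 to 39 and Zbtb46 62 to 112 counts.

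The members spanned a wide range of expression in the cultures, with class I components among the most abundant transcripts and class II genes at low counts. In FPKM, which are scaled by gene length and can be compared between genes, the median over the 12 libraries was 1548 for B2m, 441 for H2-D1, 287 for H2-K1, 13.6 for Tap1 and 7.61 for Psmb8. B2m ranked 18th, H2-D1 107th and H2-K1 193rd among all genes by this median. The class II genes followed, with 1.29 for Cd74, 0.944 for H2-Eb1, 0.771 for H2-Ab1, 0.225 for H2-Aa and 0.0540 for Ciita. B2m was above both heavy chains in every library, and H2-K1 was above Tap1 in every library. Neighbors in this order whose ranges overlapped were H2-D1 and H2-K1, Tap1 and Psmb8, and each class II gene with the next. H2-D1 nevertheless exceeded H2-K1 in 12 of 12 libraries, and Tap1 exceeded Psmb8 in 11. Psmb8 was above Cd74 in all 12 libraries, by 5.89-fold in the medians. H2-D1 shares 3.59% of its 100-base words with other genes, several of them class I genes, and H2-K1 shares 0.957%, so a small part of their reads cannot be placed with certainty. None of the other 8 members shares any such word.

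**Figure D1:**
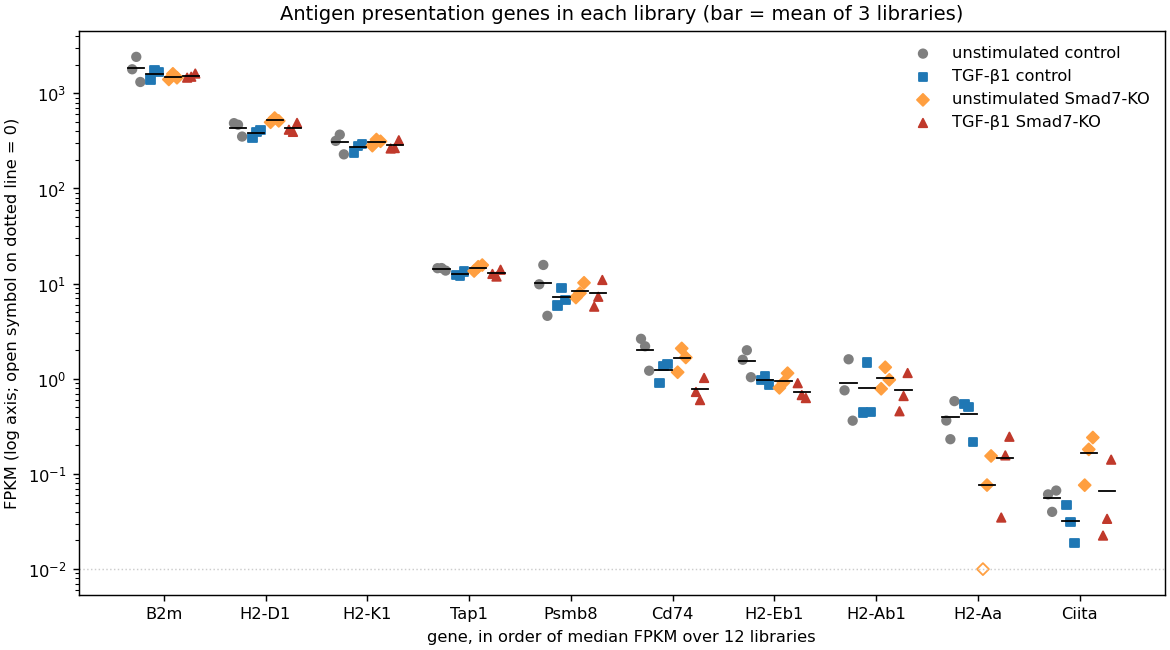
FPKM of the 10 antigen presentation genes on a log axis, in the order of their medians, with 1 point per library, 3 libraries per condition and a bar at the mean of each condition. B2m, H2-D1 and H2-K1 lie at 228 FPKM or more in every library, while the 5 class II genes lie at 2.63 FPKM or less, and the open symbol marks the library with 0 H2-Aa counts.

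Between unstimulated control and Smad7-KO cells, the libraries of 2 of the 10 members, Ciita and H2-Aa, did not overlap, which was true of 41.3% of all genes tested. They differed in opposite directions, and neither passed the adjusted threshold. Ciita (ENSMUSG00000022504, chr16:10488178-10527564, plus strand) had 7, 4 and 8 counts in unstimulated control libraries and 8, 22 and 29 in unstimulated Smad7-KO libraries. It had 6, 4 and 2 counts in TGF-β1 control libraries and 3, 4 and 16 in TGF-β1 Smad7-KO libraries, so that 1 library held most of the counts of the last condition. In normalized units Ciita was at 0.293 ± 0.0573 CPM in unstimulated control and 0.866 ± 0.436 CPM in unstimulated Smad7-KO libraries (SD, n = 3 each), and all Smad7-KO libraries were above all control libraries. The log2 fold change was 1.54 with a 95% interval from 0.15 to 2.93 (edgeR quasi-likelihood test, Benjamini-Hochberg adjusted p = 0.0875). Ciita entered the test through the Smad7-KO libraries in which it was higher. On the opposite strand the gene Dexi overlaps 3.45% of the exonic bases of Ciita, and whether reads were counted by strand is not given in the sources used here.

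H2-Aa (ENSMUSG00000036594, chr17:34282744-34287827, minus strand), which encodes the α chain of the only class II molecule these mice display, had 9, 5 and 15 counts in unstimulated control and 0, 2 and 4 in unstimulated Smad7-KO libraries. It had 15, 14 and 5 counts in TGF-β1 control libraries and 1, 4 and 6 in TGF-β1 Smad7-KO libraries. All unstimulated Smad7-KO libraries lay below all unstimulated controls, whereas the stimulated conditions overlapped. The level was 0.441 ± 0.176 CPM in unstimulated control and 0.0865 ± 0.0868 CPM in unstimulated Smad7-KO libraries (SD, n = 3 each). The log2 fold change was -2.26, with a 95% interval from -3.99 to -0.52 (edgeR, Benjamini-Hochberg adjusted p = 0.0546). DESeq2, run as an alternative, gave -2.32 with an adjusted p of 0.0389. H2-Aa passed the filter on low counts through the control libraries, where it was higher, so these values are from a gene kept by the group in which it was high. In stimulated cells the difference was -1.52, with an interval from -3.06 to 0.02 (edgeR, Benjamini-Hochberg adjusted p = 0.177). H2-Ab1, which encodes the partner β chain (ENSMUSG00000073421, chr17:34263209-34269418, plus strand), gave no such pattern. It had 20, 37 and 10 counts in unstimulated and 13, 44 and 11 in stimulated control libraries, and 19, 37 and 27 in unstimulated and 14, 18 and 30 in stimulated Smad7-KO libraries. The 4 conditions overlapped throughout, and the log2 fold change after Smad7 loss was 0.15 in unstimulated cells, with an interval from -1.19 to 1.50, and -0.06 in stimulated cells, with an interval from -1.43 to 1.31. These intervals do not exclude changes of more than 2-fold in either direction.

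Cd74 (ENSMUSG00000024610), the invariant chain, had 81, 59 and 39 counts in unstimulated control and 31, 47 and 41 in TGF-β1 control libraries. In Smad7-KO cells it had 33, 68 and 54 counts without and 26, 19 and 31 with TGF-β1, and every stimulated Smad7-KO library was below every unstimulated one once scaled to library size. Such an absence of overlap was found for 39.0% of all genes tested. Its level was 2.30 ± 0.643 CPM and 1.12 ± 0.310 CPM in these 2 conditions (SD, n = 3 each), with a log2 fold change of -1.04 and a 95% interval from -1.83 to -0.25 (edgeR, Benjamini-Hochberg adjusted p = 0.104). In control cells the same contrast gave -0.74, with an interval from -1.50 to 0.01. H2-Eb1 (ENSMUSG00000060586, chr17:34305877-34316199, plus strand) had 41, 45 and 28 counts in unstimulated and 28, 31 and 21 in stimulated control libraries, and 19, 25 and 31 in unstimulated and 27, 18 and 16 in stimulated Smad7-KO libraries. Unstimulated control libraries were the highest on average, at 1.86 ± 0.695 CPM against 1.12 ± 0.206 in unstimulated Smad7-KO libraries and 1.14 ± 0.120 in TGF-β1 control libraries (SD, n = 3 each), but both pairs overlapped. The log2 fold change was -0.72 with an interval from -1.39 to -0.04 for Smad7 loss (edgeR, Benjamini-Hochberg adjusted p = 0.0966) and -0.69 with an interval from -1.36 to -0.02 for TGF-β1 (edgeR, Benjamini-Hochberg adjusted p = 0.228).

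Among the class I genes, B2m and both heavy chains were spread most widely in unstimulated control libraries. B2m (ENSMUSG00000060802, chr2:122147686-122153083, plus strand) was at 1506, 2261 and 1085 CPM in unstimulated and 1184, 1477 and 1418 in stimulated control libraries, and 1190, 1368 and 1243 in unstimulated and 1270, 1311 and 1410 in stimulated Smad7-KO libraries. Its lowest and highest values of all 12 libraries were both in unstimulated control cells. The Smad7-KO conditions lay within that range, with log2 fold changes of -0.35 in unstimulated cells (interval -0.82 to 0.11) and -0.03 in stimulated cells (interval -0.50 to 0.43). H2-D1 (ENSMUSG00000073411, chr17:35262730-35267499, plus strand) was at 999, 1069 and 708 CPM in unstimulated and 697, 820 and 856 in stimulated control libraries, and 1032, 1146 and 1070 in unstimulated and 881, 844 and 1044 in stimulated Smad7-KO libraries. It was higher on average in Smad7-KO cells, by 0.23 and 0.22 on the log2 scale without and with TGF-β1, with intervals from -0.12 to 0.57 and from -0.12 to 0.56. H2-K1 (ENSMUSG00000061232, chr17:33996017-34000333, minus strand), the other heavy chain, ranged from 411 to 751 CPM, again with both extremes in unstimulated control cells, and its log2 fold changes after Smad7 loss were -0.02 and 0.11. Removing the trend on gene length from each library, a choice made after the data were seen, gave log2 fold changes for H2-D1 of 0.41 and 0.32, which passed the threshold in unstimulated (edgeR, Benjamini-Hochberg adjusted p = 0.00916) and in stimulated cells (edgeR, Benjamini-Hochberg adjusted p = 0.0336). The same step moved B2m to 0.05 in unstimulated cells. It called 1 of the 10 members in each of these comparisons, against 4575 and 3405 of all 15150 genes tested.

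Tap1 (ENSMUSG00000037321, chr17:34187553-34197225, plus strand) was the most even of the 10 genes, between 46.5 and 62.1 CPM in all libraries. Its log2 fold changes after Smad7 loss were 0.02 in unstimulated cells, with an interval from -0.21 to 0.26, and 0.07 in stimulated cells, with an interval from -0.17 to 0.31. With TGF-β1 they were -0.21 in control cells, with an interval from -0.45 to 0.02, and -0.17 in Smad7-KO cells, with an interval from -0.40 to 0.07. Together the 4 intervals of this gene reach from 0.732-fold to 1.24-fold. Psmb8 (ENSMUSG00000024338, chr17:34197721-34201454, plus strand), its neighbor on the chromosome, was the least even class I gene, at 18.4, 32.6 and 8.39 CPM in unstimulated and 11.0, 16.9 and 12.6 in stimulated control libraries, and 13.5, 15.0 and 19.3 in unstimulated and 11.1, 14.2 and 21.2 in stimulated Smad7-KO libraries. Every condition overlapped every other. Exons of other genes on the opposite strand overlap 14.7% of the exonic bases of Psmb8 and 3.87% of those of Tap1.

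Smad7 loss in unstimulated cells was the first comparison. None of the 10 members passed an adjusted p of 0.05 in edgeR, where 25.8% of the 15150 genes tested did. At an unadjusted p under 0.05 there were 3 members, H2-Aa, H2-Eb1 and Ciita, DESeq2 called 1, H2-Aa, and limma on log2(FPKM + 1) called 0 of the 8 it tested. All 10 members passed the filter on low counts, and the tests of the 5 class II genes rest on at most 81 counts in any library. The median log2 fold change of the members was -0.17, against -0.02 over all genes tested. Without unstimulated control library 3, edgeR called 2 members, H2-Eb1 with -0.96 (Benjamini-Hochberg adjusted p = 0.0183) and B2m with -0.57 (Benjamini-Hochberg adjusted p = 0.0107). The same fit called all 14 constitutive proteasome genes tested lower, and the share of all genes called in it is not given here. Without unstimulated control library 2, the library that stood apart, the change of B2m was -0.03 and 0 members were called.

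In TGF-β1-stimulated cells, Smad7 loss again gave 0 members past the threshold in edgeR, where 13.0% of all tested genes passed, and 0 at an unadjusted p under 0.05, in DESeq2 or in limma. The members were divided evenly, 5 above and 5 below 0, with a median of 0.02 against -0.02 over all genes. TGF-β1 in control cells left 9 of 10 members with a negative log2 fold change and a median of -0.24 against -0.03 over all genes, but edgeR called 0 where 8.37% of genes passed. At an unadjusted p under 0.05 there was 1 member, H2-Eb1, and DESeq2 and limma called 0. Without unstimulated control library 3 edgeR called 4 members here, all lower with TGF-β1, namely Cd74, H2-Eb1, Psmb8 and H2-D1, with log2 fold changes of -1.03, -0.94, -0.91 and -0.38. Of 23 other class I pathway genes the same fit called 9 lower and 1 higher, and of 14 constitutive proteasome genes 5 lower and 0 higher. The share of all genes called in that fit is not given here. TGF-β1 in Smad7-KO cells gave 8 members below 0 and 0 called by edgeR, where 10.2% of genes passed. Only Cd74 had an unadjusted p under 0.05 there, and DESeq2 and limma called 0. Both TGF-β1 comparisons and both Smad7-KO comparisons share conditions with each other, so their values are given side by side and not as independent results. With edgeR on only the 6 libraries of this last comparison, Cd74 passed with -1.04 (Benjamini-Hochberg adjusted p = 0.0195). Without TGF-β1 Smad7-KO library 3, the library with 16 Ciita counts, Ciita passed with -2.51 (edgeR, Benjamini-Hochberg adjusted p = 0.0370). The interaction, which tests whether the Smad7-KO effects in stimulated and in unstimulated cells differ, called 0 members in edgeR, at an unadjusted p under 0.05, in DESeq2 and in limma, and 3, or 0.0198%, of all genes tested.

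**Figure D2:**
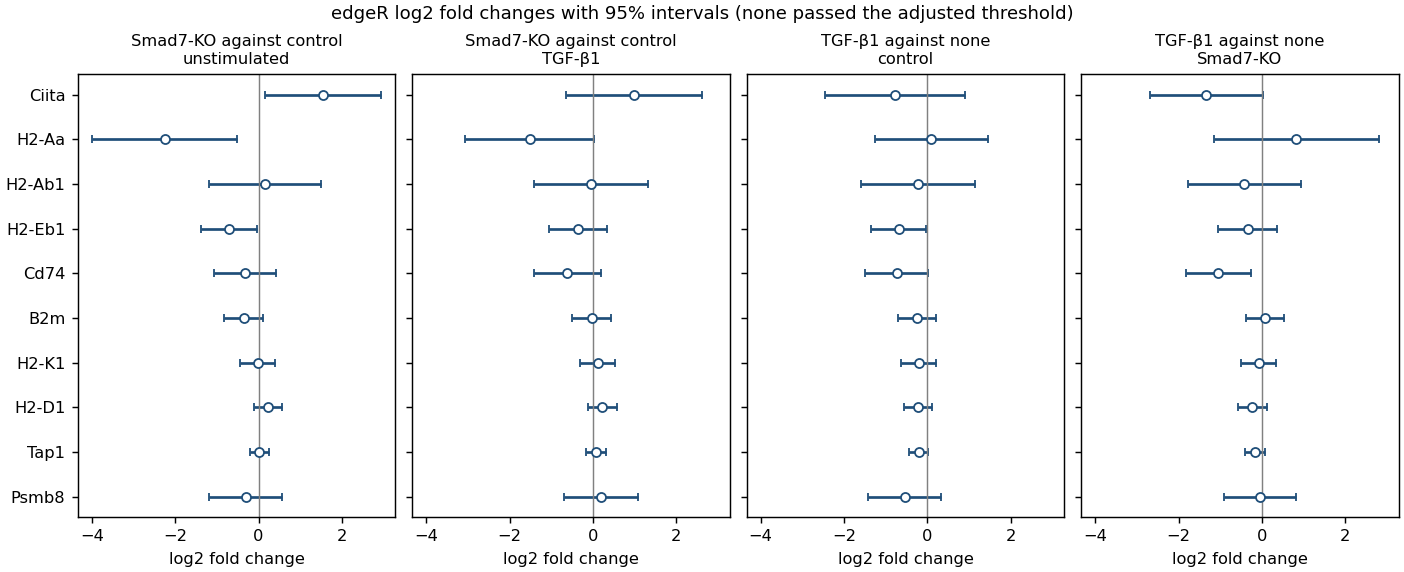
edgeR log2 fold changes of the 10 genes with 95% intervals in the 4 comparisons of 3 libraries against 3. Intervals are narrow for Tap1, H2-D1, H2-K1 and B2m and wide for Ciita, H2-Aa and H2-Ab1, and the intervals of H2-Aa, H2-Eb1 and Ciita do not reach 0 after Smad7 loss in unstimulated cells.

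Ratios between genes in the same library do not depend on scaling between libraries, and several of them did not overlap between the genotypes. Psmb8, Psmb9 and Psmb10 encode the immunoproteasome subunits that take the place of the constitutive subunits encoded by Psmb5, Psmb6 and Psmb7. Psmb8 counts were 18.1%, 19.4% and 12.3% of Psmb5 counts in unstimulated control and 19.8%, 21.4% and 27.7% in unstimulated Smad7-KO libraries. They were 14.1%, 16.2% and 15.0% in TGF-β1 control and 18.2%, 22.6% and 25.5% in TGF-β1 Smad7-KO libraries. Every Smad7-KO library was above every control library at the same stimulation. Psmb9 counts were 19.0% ± 2.84 of Psmb6 counts in unstimulated control and 30.0% ± 1.37 in unstimulated Smad7-KO libraries, and 17.3% ± 2.53 and 27.0% ± 4.95 in the stimulated conditions (SD, n = 3 each). Psmb10 counts were 45.4% ± 6.09 and 62.1% ± 3.45 of Psmb7 counts in the unstimulated and 35.7% ± 2.46 and 51.7% ± 2.45 in the stimulated conditions, control before Smad7-KO (SD, n = 3 each). Each of these 6 pairs of conditions was without overlap, with a two-sided exact permutation p of 0.1, the smallest that 3 libraries against 3 allow. Over the 32 comparisons made with 8 ratios, 21 were without overlap and the smallest Benjamini-Hochberg adjusted p from the exact permutation test was 0.152. Among single genes tested, 41.3% were without overlap after Smad7 loss in unstimulated cells and 39.0% with TGF-β1 in Smad7-KO cells. The share among ratios of other genes is not given here. The slope of log2 CPM on gene length ran from -0.396 to 0.0966 in control and from 0.0181 to 0.143 in Smad7-KO libraries, and its part in these ratios was not tested.

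The numerators of these ratios did not pass the threshold, and the denominators had the more negative values. Log2 fold changes after Smad7 loss in unstimulated cells were -0.31 for Psmb8, 0.00 for Psmb9 and -0.47 for Psmb10, none past the threshold, against -0.70 for Psmb5, -0.74 for Psmb6 and -0.86 for Psmb7, of which Psmb7 passed (edgeR, Benjamini-Hochberg adjusted p = 0.0487). Of 14 constitutive core subunits tested, 8 fell in unstimulated Smad7-KO cells, among them Psmb3 and Psmb4, by 0.94 and 0.93 on the log2 scale, and all 14 had negative values, with a median of -0.74. Over all genes tested 25.8% passed in unstimulated and 13.0% in stimulated cells, in either direction. In stimulated cells 0 of 14 passed in edgeR and 0 had an unadjusted p under 0.05, and all 14 values were again negative, with a median of -0.35. The number that fell in unstimulated cells was 14 when the third unstimulated control library was left out and 1 when either of the others was. It was 0 without any single unstimulated Smad7-KO library and 1 to 4 without any single TGF-β1-stimulated library, which enter the fit through the shared estimate of spread. With the trend on gene length removed it was 8, with a median of -0.32.

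**Figure D3:**
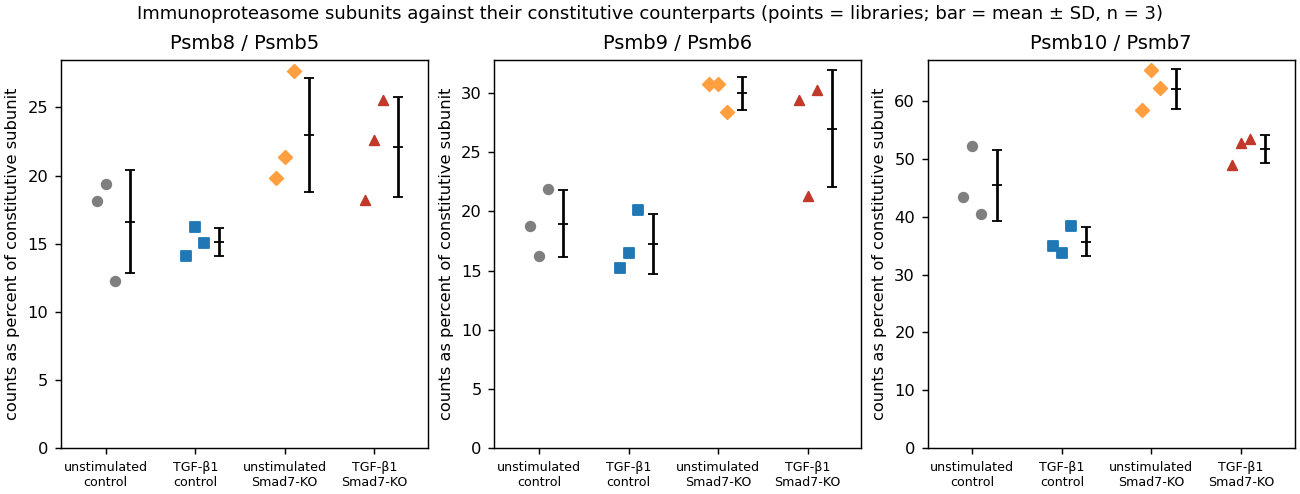
Counts of Psmb8, Psmb9 and Psmb10 as a percent of the counts of Psmb5, Psmb6 and Psmb7 in each library, with the mean ± SD of 3 libraries beside the points. At each stimulation the Smad7-KO points lie above the control points in all 3 panels.

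Ratios among the 2 heavy chains and β2-microglobulin also did not overlap between the genotypes. H2-K1 counts were 58.0%, 70.2% and 58.0% of H2-D1 counts in unstimulated control and 50.6%, 53.0% and 54.4% in unstimulated Smad7-KO libraries. They were 63.3%, 63.3% and 63.0% in TGF-β1 control and 56.6%, 60.3% and 58.6% in TGF-β1 Smad7-KO libraries. The Smad7-KO libraries were below the control libraries at both stimulations, and in Smad7-KO cells the stimulated libraries were above the unstimulated ones. The FPKM of B2m was 2.46 ± 0.371 times the summed FPKM of both heavy chains in unstimulated and 2.46 ± 0.105 in stimulated control libraries, and 1.80 ± 0.0329 in unstimulated and 2.14 ± 0.138 in stimulated Smad7-KO libraries (SD, n = 3 each). Here too both Smad7-KO conditions were below their controls without overlap (two-sided exact permutation test, p = 0.1 in each, the smallest possible). B2m has the shortest of the 3 gene lengths, with 860 bases against 1874 and 2102, and the part of the gene length trend in this ratio was not tested. Absence of overlap was also found for 41.3% of single genes tested after Smad7 loss in unstimulated cells. With TGF-β1 in Smad7-KO cells it was found for 39.0%. The shares for Smad7 loss in stimulated cells and for ratios of other genes are not given here.

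Class II reads were few beside the abundant macrophage transcripts in the same libraries. Summed counts of H2-Aa, H2-Ab1, H2-Eb1 and Cd74 were 28.3, 29.7 and 21.0 per 100000 counts of the 18 macrophage markers in unstimulated control and 13.4, 19.8 and 17.6 in unstimulated Smad7-KO libraries. They were 18.9, 26.6 and 17.7 in TGF-β1 control and 10.4, 9.87 and 13.6 in TGF-β1 Smad7-KO libraries. All Smad7-KO libraries were below all control libraries at the same stimulation (two-sided exact permutation test, p = 0.1 in each, the smallest possible). Of single genes tested, 41.3% were without overlap after Smad7 loss in unstimulated cells, and the share among other ratios is not given here. The summed level of the denominator overlapped between genotypes in unstimulated cells, but not in stimulated ones. Of 18 macrophage markers tested, 10 rose and 0 fell in unstimulated Smad7-KO cells and 7 rose and 0 fell in stimulated ones, with median log2 fold changes of 0.58 and 0.54. Over all genes tested 25.8% and 13.0% passed in these 2 comparisons, in either direction. In unstimulated cells 5 rose without unstimulated Smad7-KO library 2 or 3. In stimulated cells 3 rose without TGF-β1 control library 2 or TGF-β1 Smad7-KO library 2, 4 without TGF-β1 Smad7-KO library 1 and 11 without unstimulated control library 2. With the length trend removed 14 rose and 1 fell in unstimulated and 13 rose and 0 fell in stimulated cells. Their summed level was 18442 to 28051 CPM in unstimulated and 18631 to 21423 in stimulated control libraries, and 26203 to 28585 in unstimulated and 26038 to 28862 in stimulated Smad7-KO libraries. Endothelial markers, whose cells can also carry class II, fell instead, 7 of 11 tested, with 1 that rose, in each Smad7-KO comparison, with summed levels of 301 to 381 CPM in control and 65.7 to 110 CPM in Smad7-KO libraries. The dendritic cell list, whose reads came mostly from Itgax and Irf8, which macrophages also express, had a summed level of 123 to 202 CPM in control and 194 to 276 CPM in Smad7-KO libraries. The part of these cell types in the class II values was not tested.

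Other genes of both pathways were described from lists chosen by function. Of the class II pathway, 17 of 19 genes found were tested, and 3 rose and 0 fell after Smad7 loss in unstimulated cells, against 2 and 0 in stimulated cells. The median log2 fold changes were 0.09 and 0.20, against -0.02 over all genes in both, and over all genes 25.8% and 13.0% passed in either direction. March1, a membrane ubiquitin ligase that removes class II from the cell surface, rose from 49.6 ± 16.3 to 99.4 ± 2.15 CPM in unstimulated cells (SD, n = 3 each, log2 fold change 1.00, standard error 0.212, edgeR, Benjamini-Hochberg adjusted p = 0.00809). Nfya, a subunit of NF-Y, which binds the CCAAT box, rose by 0.81 (standard error 0.148) in unstimulated and 0.63 (standard error 0.147) in stimulated cells. Creb1, whose product binds CRE boxes, rose by 0.79 (standard error 0.149) and 0.74 (standard error 0.148). These 3 genes passed in unstimulated cells with every library left out in turn. With the trend on gene length removed, Creb1 was at 0.33 in unstimulated cells and did not pass (edgeR, Benjamini-Hochberg adjusted p = 0.0631), and was at 0.47 in stimulated cells and passed (edgeR, Benjamini-Hochberg adjusted p = 0.0153). The other subunits of these complexes, Nfyb, Nfyc, Rfx5, Rfxap and Rfxank, did not pass the threshold in either Smad7-KO comparison. The number that rose was 6 in each comparison without unstimulated control library 2, and 1 in stimulated cells without TGF-β1 control library 2 or TGF-β1 Smad7-KO library 1 or 2. Without unstimulated control library 3 it was 5 in each, with 2 genes that fell in unstimulated cells. With the length trend removed it was 7 and 6.
Part of the machinery that loads class II was far more abundant than the class II chains. Median FPKM were 718 for the protease gene Ctss, 16.3 for H2-DMb1 and 9.05 for H2-DMa, which encode the chains of the peptide exchange factor, against 0.944 or less for H2-Aa, H2-Ab1 and H2-Eb1. None of these 3 loading genes passed the threshold in any of the 4 comparisons. After Smad7 loss Ctss was at 0.29 in unstimulated and 0.54 in stimulated cells, and with the trend on gene length removed it was at 0.68 (edgeR, Benjamini-Hochberg adjusted p = 0.000690) and 0.71 (edgeR, Benjamini-Hochberg adjusted p = 0.000587) and passed in both. H2-DMb1 then passed in unstimulated cells, with 0.33 (edgeR, Benjamini-Hochberg adjusted p = 0.0255).

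Of the other class I pathway genes 27 were found and 23 tested. In unstimulated Smad7-KO cells 3 rose and 2 fell, and in stimulated cells 3 rose and 0 fell, with medians of -0.06 and 0.11. Both counts are near or under the share of all genes that passed, 25.8% and 13.0%. Nlrc5, the class I counterpart of Ciita, was at 11.5 ± 5.67 CPM in unstimulated control and 26.5 ± 0.629 CPM in unstimulated Smad7-KO libraries, a log2 fold change of 1.19 (standard error 0.298, edgeR, Benjamini-Hochberg adjusted p = 0.0175). In stimulated cells it was at 11.2 ± 2.18 and 24.1 ± 1.73 CPM, a change of 1.10 (standard error 0.298, edgeR, Benjamini-Hochberg adjusted p = 0.0316; SD, n = 3 each). With 1 of the 6 libraries of the comparison removed at a time, it passed in 3 and in 1 of the 6 cases. Erap1, which trims peptides in the endoplasmic reticulum, rose by 0.75 (standard error 0.179) and 0.65 (standard error 0.178). Tapbpl, a peptide editor, rose by 0.39 in unstimulated cells, and Mr1, a class I-like molecule that presents vitamin metabolites, by 0.67 in stimulated cells. Cd1d1, a lipid-presenting relative, fell by 0.86 and the loading complex gene Pdia3 by 0.58 in unstimulated cells. Mr1 was also the class I gene that rose with TGF-β1 in both genotypes, by 0.79 in control and 1.04 in Smad7-KO cells. Without any single one of the unstimulated Smad7-KO libraries, 0 or 1 of the list rose in unstimulated cells, and without unstimulated control library 3 there were 5 that rose and 8 that fell. In stimulated cells 0 rose without TGF-β1 control library 2 or 3 or without TGF-β1 Smad7-KO library 1 or 2, and 1 without any single unstimulated Smad7-KO library.

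Interferon-γ is the classical inducer of class II in fibroblasts. Ifng itself had 0 counts in every library. Its receptor genes were expressed, and Ifngr1 fell with TGF-β1 from 221 ± 8.85 to 141 ± 5.14 CPM in control and from 212 ± 9.24 to 129 ± 3.53 CPM in Smad7-KO cells (SD, n = 3 each). The log2 fold changes were -0.64 (standard error 0.0828, edgeR, Benjamini-Hochberg adjusted p = 0.000419) and -0.71 (standard error 0.0829, edgeR, Benjamini-Hochberg adjusted p = 0.000161), and both passed with each library left out in turn. Ifngr2 did not pass in any of the 4 comparisons. Of 17 genes of the interferon-γ axis tested, 4 fell and 1 rose with TGF-β1 in control cells and 5 fell and 1 rose in Smad7-KO cells, with medians of -0.46 and -0.32 against -0.03 and -0.01 over all genes. Over all genes 8.37% and 10.2% passed in either direction. The 1 of the list that rose was Irgm1, by 0.44 in each. With 1 of the 6 libraries of the comparison removed at a time, Irgm1 passed in 1 of the 6 cases in each genotype. It did not pass with the length trend removed (edgeR, Benjamini-Hochberg adjusted p = 0.116 in control and 0.0518 in Smad7-KO cells). Gbp5 and Gbp7, guanylate-binding proteins, fell by 1.54 and 1.50 in control cells and by 1.41 and 1.65 in Smad7-KO cells. After Smad7 loss 5 rose and 0 fell in unstimulated cells and 6 rose and 0 fell in stimulated cells, with medians of 0.29 and 0.28. Over all genes 25.8% and 13.0% passed in either direction, and the number in unstimulated cells is near that share. Irgm2 was higher by 0.74 and 0.89 and Gbp7 by 1.10 and 0.95. The chemokine gene Cxcl10 was higher by 1.68 in stimulated cells and was at -0.01 in unstimulated ones, and the interaction did not pass for it (edgeR, Benjamini-Hochberg adjusted p = 0.980). These numbers ranged from 2 to 6 and from 1 to 8 with each library left out. In unstimulated cells they were 2 without unstimulated Smad7-KO library 3 and 3 without unstimulated Smad7-KO library 2 or unstimulated control library 1. In stimulated cells they were 1 without TGF-β1 control library 2 and 2 or 3 without TGF-β1 control library 1 or any single TGF-β1 Smad7-KO library. Of 24 type I interferon genes tested, 2 rose and 0 fell in each Smad7-KO comparison, with medians of 0.25 and 0.38. They were Stat2, by 0.62 and 0.66, with Irf9 by 0.38 in unstimulated and Rsad2 by 2.40 in stimulated cells. With the length trend removed Irf9 was at 0.26 and did not pass (edgeR, Benjamini-Hochberg adjusted p = 0.0628). In unstimulated cells 0 rose without unstimulated Smad7-KO library 2 or 3 and 5 without unstimulated control library 3. In stimulated cells 0 rose without TGF-β1 control library 1 or 2 and 6 without unstimulated control library 2.

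Of 5 co-stimulatory and checkpoint genes tested, 2 rose in unstimulated and 1 in stimulated Smad7-KO cells, with medians of 0.27 and 0.34. Over all genes 25.8% and 13.0% passed in either direction, and 5 genes are too few to set against these shares. Cd274, which encodes the checkpoint ligand PD-L1, rose by 1.02 (standard error 0.213) in unstimulated cells, and passed with each library left out. Cd86, which gives T cells their second signal, rose by 0.40 after Smad7 loss in unstimulated cells and fell with TGF-β1 by 0.54 in control and 0.60 in Smad7-KO cells. In control cells the fall of Cd86 passed in 3 of the 6 fits without a library of the comparison, and 0 genes of the list fell without TGF-β1 control library 1 or 2. Icosl rose by 0.58 in stimulated Smad7-KO cells. Without unstimulated Smad7-KO library 2 or 3 or unstimulated control library 1 or 2, 1 gene of the list rose in unstimulated cells. In stimulated cells the number was 3 without unstimulated control library 2 or 3 and 0 without TGF-β1 control library 2 or TGF-β1 Smad7-KO library 2, and 3 with the length trend removed.

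**Figure D4:**
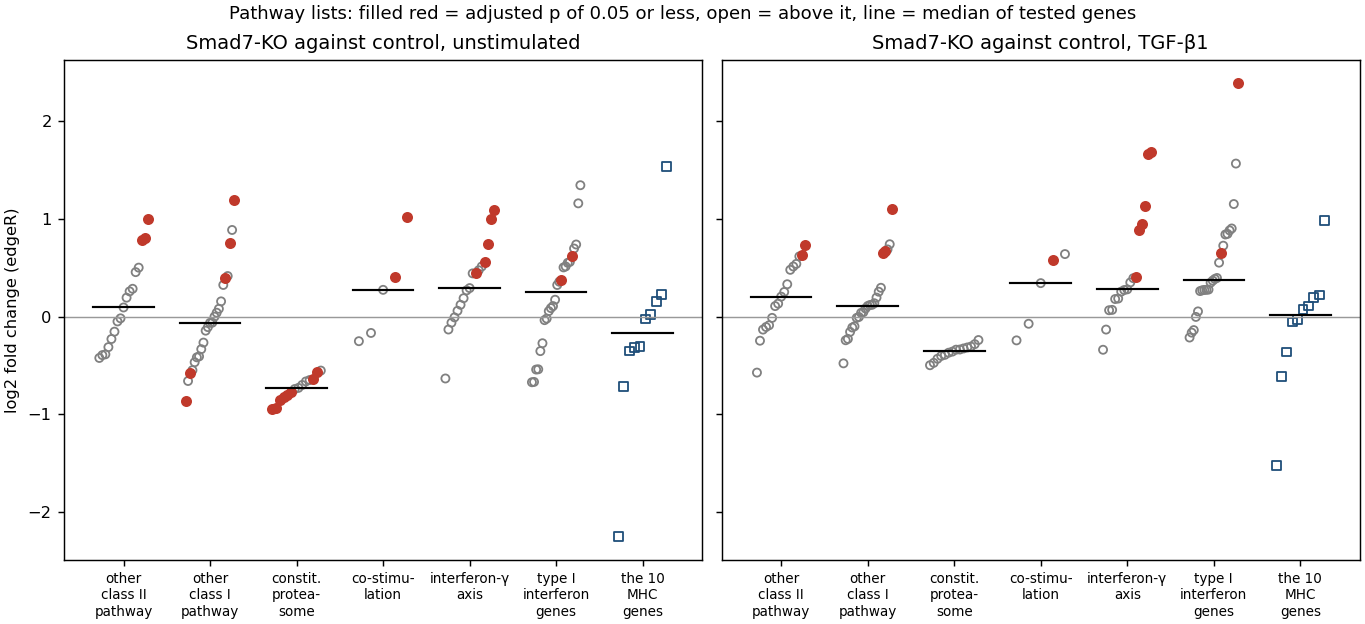
edgeR log2 fold changes of the tested genes of 6 pathway lists and of the 10 members after Smad7 loss, in unstimulated cells (left) and in TGF-β1-stimulated cells (right), with filled points for an adjusted p of 0.05 or less and a line at each median. The constitutive proteasome genes all lie below 0, and the median of the members is -0.17 on the left and 0.02 on the right.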

How the data were processed

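RNA from the 12 cultures was sequenced as poly(A)-selected paired-end libraries. For each gene and library the authors deposited read counts and FPKM, that is, counts scaled by gene length and by library total. The submitters' processing notes name CASAVA, TopHat2 2.0, Cufflinks 2.1.1, HTSeq 0.6.1, mm10 and GRCm38.p6, and the use of strand in counting is not given in the sources used here. In all 35275 genes the deposited FPKM could be recomputed from the count, the gene length and the library total within a relative tolerance of 1e-06.

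Groups were taken from the sample labels. Counts of all 12 libraries were scaled with the TMM method and fitted in edgeR 4.0.16 (R 4.3.3) with the quasi-likelihood test, after a low-count filter with a minimum count of 10, which left 15150 genes. P values were adjusted over all genes tested with the Benjamini-Hochberg method, and an adjusted p of 0.05 or less was called. CPM are TMM-scaled, log2 fold changes carry 95% intervals, and single ratios were compared with a two-sided exact permutation test in SciPy 1.17.1. Alternatives were DESeq2 1.42.0, the tool of the study's methods, limma 3.58.1 on log2(FPKM + 1), other scalings and filters, the replicate block and each library left out. The edgeR step was tested on simulated data with changed genes. These data had the same spread in every group and no gene length trend, unlike the libraries here, so the step was not checked under those differences. The 10 members, the pathway lists and the rules for naming genes were chosen with earlier results of these data known: members are named in full, and of each list the genes past the threshold in a Smad7-KO comparison, at most 6, together with reference genes. Promoter sequences came from RefSeq (GRCm38.p6). Intervals of counts cover the spread between libraries. No column of per-sample values was left without a sample. The result of 1 reference gene is not reported here.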

Additional observations from a re-analysis of the deposited data

How the results depend on the processing

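In all, 50 log2 fold changes (10 members in 5 comparisons) were recomputed in 19 other fits, giving 924 values. Of these, 856 kept their direction and their side of the threshold, 13 passed the threshold with the same direction, 55 changed sign with both values short of the threshold, and 0 changed sign and passed it. The changes of sign fell on 21 fold changes, and 10 of them came without unstimulated control library 2. The number of members called after Smad7 loss in unstimulated cells was 1 in DESeq2 and 1 with the trend on gene length removed, an alternative chosen after the data were seen, and 0 to 2 with each library left out. After Smad7 loss in stimulated cells it was 1 with the length trend removed and 0 to 0 with each library left out. With TGF-β1 it was 0 to 4 in control cells with each library left out, and in Smad7-KO cells 1 with edgeR on the 6 libraries of the comparison, 1 with the length trend removed and 0 to 1 with each library left out. For the interaction it was 0 to 0. The cause was not tested. With the replicate block 0 members were called in all 5 comparisons; the same numbers in different conditions are not stated to pair the cultures, and correlations of same-numbered deviations ran from -0.357 to 0.524, so the number was read as a label only. Over all genes, removing the length trend raised the calls from 3907 to 4575 and from 1962 to 3405 for Smad7 loss without and with TGF-β1, from 1268 to 2209 and from 1550 to 2507 for TGF-β1 in control and Smad7-KO cells, and from 3 to 6 for the interaction. Depth limits the class II genes most, since H2-Aa and Ciita had at most 15 and 29 counts in any library.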

Other observations

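Genes other than the 10 members were ranked by how closely they followed each class over the 12 libraries. The top 5 of each ranking were not antigen presentation genes, with the exception of H2-T23. With the mean log2 CPM of the 5 class I members as the profile, Pearson's r was 0.979 for Renbp, 0.971 for Hmox2, 0.970 for Capg, 0.965 for H2-T23, a nonclassical class I gene, and 0.965 for Npc2. With the mean of the 5 class II members it was 0.924 for Fxyd2, 0.920 for Eml2, 0.885 for Rnf220, 0.875 for Hdac8 and 0.873 for Lix1. The points share 12 libraries, their depth and their length trend, the genes were picked as the highest of all tested, and the values are a description.

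B2m counts were 6.75 ± 1.16 per 100 counts of the 18 macrophage markers in unstimulated and 6.69 ± 0.377 in stimulated control libraries, and 4.56 ± 0.223 in unstimulated and 4.87 ± 0.0218 in stimulated Smad7-KO libraries (SD, n = 3 each). All Smad7-KO libraries were below all control libraries. Of single genes tested, 41.3% were without overlap after Smad7 loss in unstimulated cells, and the share among other ratios is not given here. After Smad7 loss B2m itself was at -0.35 without and -0.03 with TGF-β1 on the log2 scale and did not pass the threshold. Of the 18 markers 10 rose without and 7 with TGF-β1, and 0 fell. The part of the markers in this ratio was not tested. Cd74 counts per 100000 counts of the same markers were 12.0 ± 3.13 and 8.22 ± 1.99 in unstimulated control and Smad7-KO libraries, which overlapped, and 8.41 ± 1.45 and 4.08 ± 0.949 in the stimulated conditions, which did not.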
